A study of Mus musculus with 9 samples.

Results

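The gene group described here joins the Toll-like and NOD receptors with the proteins that carry their signal to the NF-kB transcription factors: 40 genes, chosen by symbol from the 35315 genes of a colon expression table. They comprise 11 Toll-like receptors, 3 proteins that present bacterial lipopolysaccharide (LPS) to one of them, 8 adaptors and IRAK kinases, Nod1, Nod2 and Ripk2, the IkB kinase genes Chuk, Ikbkb and Ikbkg with Map3k8, the 5 NF-kB subunits, 5 IkB proteins and Birc3. All 40 were found once in the table. Toll-like receptors bind microbial molecules at the cell surface or in endosomes and signal through TIR-domain adaptors and IRAK kinases, while NOD receptors sense peptidoglycan fragments in the cytoplasm and signal through RIPK2. Both routes activate the IkB kinase complex, which marks IkB proteins for destruction and so frees NF-kB dimers to enter the nucleus. In the colon these receptors face the resident bacteria, and several of the genes for IkB proteins and NF-kB subunits are themselves NF-kB targets.

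RNA was measured in the colon of wild-type C57BL/6J mice aged 8 weeks, in 3 groups of 3 libraries. The GsMTx4 group drank 2.5% dextran sulfate sodium (DSS), a sulfated sugar polymer used to damage the lining of the colon and cause colitis, over 7 days, and was injected intravenously with GsMTx4, 10 mg/kg, on days 2, 4 and 6; GsMTx4 is a spider venom peptide that blocks mechanically gated cation channels such as Piezo1. The DSS group drank the same DSS solution and was injected with solvent on the same days. The Control group drank normal water, and no injection is listed for it, so effects of DSS and of the injections cannot be told apart in a comparison with Control. Whether each library is from its own mouse is not stated in the labels, so p-values reflect only the spread between libraries, which may be technical. In a piece of tissue, fewer cells of a type and less RNA per cell cannot be told apart.

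Levels are FPKM, fragments scaled to transcript length and library size, which allow comparison between genes. Log2 fold changes are differences in mean log2(FPKM + 1) ± SE, n = 3 libraries a group, and a gene passed at a limma adjusted p under 0.05 over all 14360 genes tested. The depth of the libraries in reads is unknown; their FPKM sums ran from 349125 to 440935. The highest sum was that of GsMTx4 3, which also stood apart from the other libraries on the second principal component (-44.7, against -26.8 to 21.5 in the others). On the leading component, with 43.3% of the variance, the GsMTx4 libraries lay at -23.3 to -2.5, the DSS libraries at 38.2 to 51.8 and the Control libraries at -29.9 to -28.6. The epithelial marker Epcam was abundant in every library, at 521 to 707 FPKM in GsMTx4, 555 to 659.6 FPKM in DSS and 638 to 826 FPKM in Control.

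In DSS colon the members that rose were LPS sensors, 2 endosomal receptors, the kinases Irak3 and Irak4, the NF-kB subunit Rel, an IkB protein and Birc3. Against Control, 10 of the 39 members tested rose (Tlr4, Tlr8, Tlr13, Cd14, Lbp, Irak3, Irak4, Rel, Nfkbie and Birc3), or 25.6%, where 6.41% of all tested genes rose. No member fell, where 10.7% of all genes did; 17.1% of all genes passed in either direction. At an unadjusted p under 0.05, 16 members were higher (41.0%) and 1 lower (2.56%), beside 11.7% and 23.2% of all genes. The median log2 fold change of the members was 0.30, beside -0.17 over all tested genes, and 33 had a positive value and 6 a negative one. All 3 DSS libraries were above all 3 Control libraries for 19 members (48.7%), where 13.5% of all genes had such a separation, and below them for 2 (Tlr1 and Ikbkg), where 33.6% did. The count of 10 depended on single libraries: it was 7 without Control 1, 2 without Control 2 or Control 3 and 8 without DSS 1. It was 5 without DSS 2 and 4 without DSS 3. Over all genes the 921 rises became 492, 382 and 425 without Control 1, 2 and 3. They became 791, 789 and 675 without DSS 1, 2 and 3. Without GsMTx4 3, the library that stood apart, 12 members rose, beside 1094 of all genes, and Tlr1 was then called lower. Rescaling to TPM kept the calls of Tlr8, Lbp, Irak3 and Rel, and a fit of all genes with no minimum level kept those of Cd14, Lbp, Irak3 and Rel.

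With GsMTx4, 5 members fell relative to DSS (Tlr8, Tlr13, Irak3, Rel and Nfkbib), or 12.8% of those tested, where 5.62% of all genes fell. The cell surface receptor Tlr1 rose, as did 6.66% of all genes, and 12.3% of all genes passed in either direction. The median log2 fold change of the members was -0.24, beside 0.07 over all genes, and was -0.37 without GsMTx4 1. All 3 GsMTx4 libraries lay below all 3 DSS libraries for 11 members (28.2%), where 12.8% of all genes did, and above them for Tlr1 alone, where 17.5% did. The count of 5 was 3 without Control 2 or Control 3 and 2 without DSS 3, GsMTx4 2 or GsMTx4 3, while the call of Tlr1 remained only when GsMTx4 3 was left out. Over all genes the 807 falls became 500, 516, 461, 323 and 596 in these fits. Rescaling to TPM kept the calls of Tlr8, Rel and Nfkbib, and the fit with no minimum level those of Rel, Nfkbib and Tlr1. A fit of the GsMTx4 and DSS libraries alone, which estimates the spread from fewer libraries, called no member in either direction. Over all genes it called 327 higher and 260 lower, beside 956 and 807 in the main fit. The comparison shares the DSS libraries with that against Control, so that the values of the pair are given side by side and their opposite signs are not read as support for each other. Of the 33 members with a higher mean in DSS than in Control, 20 had a GsMTx4 mean between the other two, 10 had one below both and 3 had one above both.

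**Figure D1:**
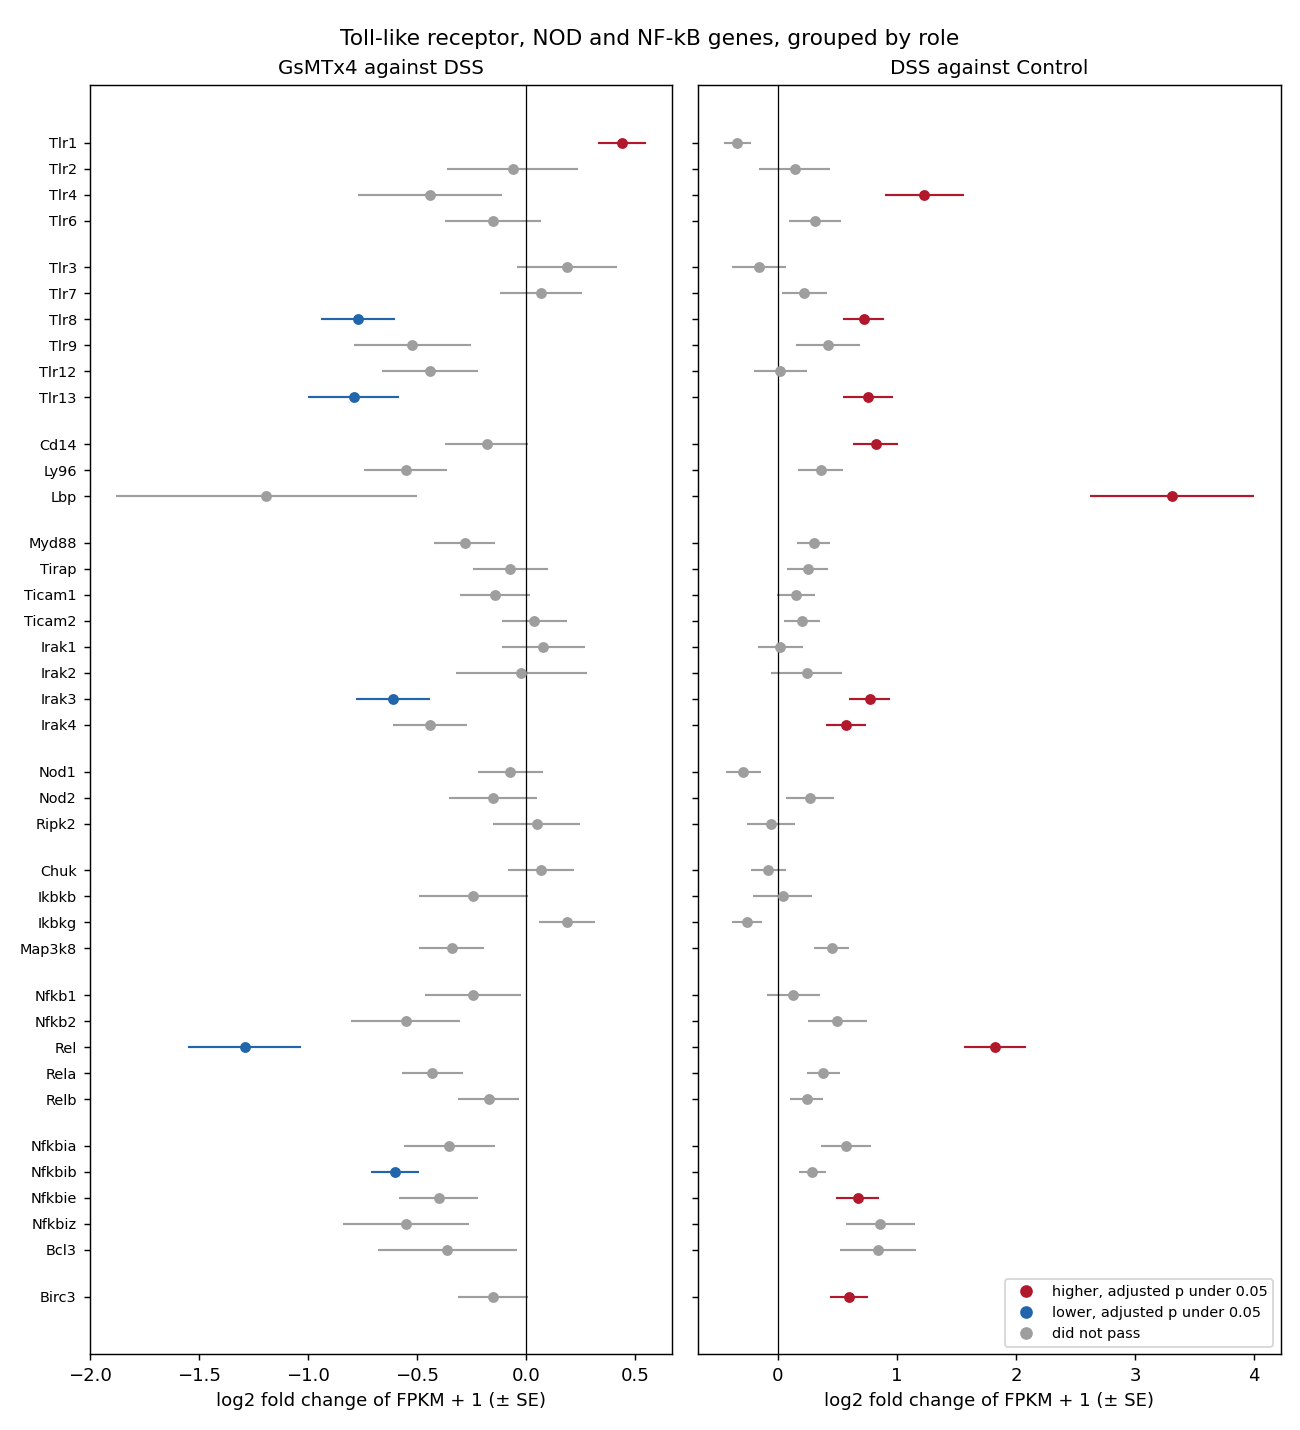
Log2 fold changes of FPKM + 1 (points, with bars of ± 1 SE) of the 39 tested members, in blocks by role, for GsMTx4 against DSS on the left and DSS against Control on the right; the x axes differ in range. Most points lie left of 0 on the left (median -0.24) and right of 0 on the right (median 0.30), with Rel as the only member past the threshold by more than 1 on the log2 scale in both.

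Among the Toll-like receptors, Tlr1 had by far the highest level, at 31.4 to 34.2 FPKM in GsMTx4, 23.3 to 25.4 FPKM in DSS and 30.5 to 31.4 FPKM in Control. It gave 44.2% to 50.9% of the summed FPKM of the 11 receptors in GsMTx4, 30.3% to 42.0% in DSS and 43.7% to 51.4% in Control. Tlr1 and Tlr6, which each pair with TLR2 to bind bacterial lipopeptides, are close relatives: 15.4% of the 50-base stretches of Tlr1 transcripts also occur in transcripts of other genes, Tlr6 above all, so that the split of reads between them is uncertain. In Control the next receptors were Tlr3 (8.97 ± 3.02 FPKM) and Tlr2 (8.08 ± 1.14 FPKM), which did not differ beyond their SD, then Tlr12 (3.89 ± 0.583), Tlr4 (3.48 ± 1.87) and Tlr13 (2.85 ± 0.519). The Tlr4 libraries overlapped in level with those of both Tlr12 and Tlr13, while every Control library had more Tlr12 (3.52 to 4.56 FPKM) than any had Tlr13 (2.26 to 3.19 FPKM). Tlr9, Tlr7, Tlr6 and Tlr8 followed, with means of 1.65, 1.40, 1.02 and 1.02 FPKM. Tlr5, the flagellin receptor, had the lowest mean in all 3 groups, at 0.436 to 0.780 FPKM over the 9 libraries, and was left out of the tests by the minimum level. The summed FPKM of the 11 receptors overlapped between groups, at 61.6 to 77.1 in GsMTx4, 60.6 to 78.1 in DSS and 59.2 to 71.8 in Control.

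**Figure D2:**
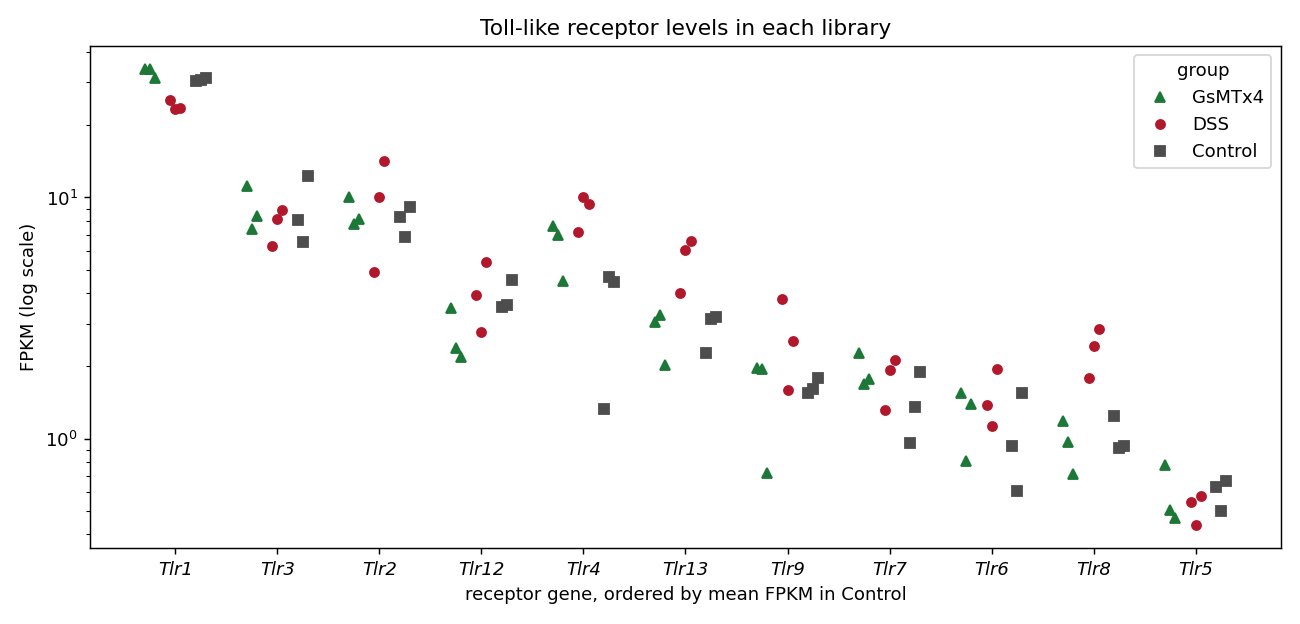
FPKM of the 11 Toll-like receptor genes in each library (log axis; triangles GsMTx4, circles DSS, squares Control), ordered by mean in Control. Tlr1 lies above 23 FPKM in every library, Tlr8 and Tlr13 are highest in the DSS libraries, and 1 Control library of Tlr4 lies at 1.33 FPKM.

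At the cell surface, Tlr1 rose with GsMTx4 relative to DSS, and Tlr4 rose in DSS relative to Control. Tlr1 stood at 34.1, 34.2 and 31.4 FPKM in GsMTx4, against 25.4, 23.3 and 23.6 FPKM in DSS, where Control had 30.5, 30.8 and 31.4 FPKM. The DSS libraries were thus the 3 lowest of the 9. Tlr1 rose with GsMTx4 by 0.44 ± 0.11 (adjusted p = 0.0313), and leaving out any 1 library except GsMTx4 3 ended the call (adjusted p up to 0.102). The difference of DSS from Control, -0.34 ± 0.11, missed the threshold (adjusted p = 0.0578). Tlr4, the LPS receptor, had 7.60, 6.96 and 4.50 FPKM in GsMTx4, 7.17, 10.0 and 9.36 FPKM in DSS and 1.33, 4.66 and 4.46 FPKM in Control. Every DSS library was above every Control library, and the GsMTx4 libraries overlapped with both. Tlr4 rose in DSS by 1.23 ± 0.33 (adjusted p = 0.0357). Control 1 had the lowest value, and without it the rise was 0.81 and did not pass (adjusted p = 0.0604), nor did it without Control 3, DSS 2 or DSS 3 (0.0529, 0.0957 and 0.0843). GsMTx4 differed from DSS by -0.44 ± 0.33 (95% interval -1.19 to 0.32, adjusted p = 0.414). For Tlr2 and Tlr6 all groups overlapped; DSS differed from Control by 0.14 ± 0.30 and 0.31 ± 0.22 and GsMTx4 from DSS by -0.06 ± 0.30 and -0.15 ± 0.22.

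Among the endosomal receptors, which sense nucleic acids or, for TLR12, a parasite protein, Tlr8 and Tlr13 were highest in DSS. Tlr8, whose human counterpart binds single-stranded RNA, had 1.18, 0.968 and 0.714 FPKM in GsMTx4, 1.79, 2.43 and 2.84 FPKM in DSS and 1.24, 0.909 and 0.929 FPKM in Control. Tlr13, a receptor for bacterial ribosomal RNA that mice have and humans lack, had 3.04, 3.25 and 2.02 FPKM in GsMTx4, 4.02, 6.08 and 6.60 FPKM in DSS and 2.26, 3.12 and 3.19 FPKM in Control. For both genes every DSS library exceeded every library of the other groups, and the GsMTx4 and Control libraries overlapped. Tlr8 fell by 0.77 on the log2 scale with GsMTx4 (SE 0.17, adjusted p = 0.0208) and rose in DSS over Control by 0.72 ± 0.17 (adjusted p = 0.021). Outside DSS only GsMTx4 1 and Control 1 reached 1 FPKM, so Tlr8 entered the tests through the DSS libraries, where it is high. In the limma fit with no minimum level neither Tlr8 call passed (adjusted p = 0.0584 against DSS and 0.0589 against Control). Tlr13 fell by 0.79 with GsMTx4 (SE 0.21, adjusted p = 0.0378) and rose in DSS by 0.76 ± 0.21 (adjusted p = 0.0359). Neither call was independent of single libraries. That of Tlr8 against DSS was lost without DSS 3, GsMTx4 2 or GsMTx4 3 (adjusted p = 0.0609, 0.0635 and 0.0508) and that against Control without Control 2, Control 3, DSS 2 or DSS 3 (0.0843, 0.0764, 0.0552 and 0.0586). Tlr13 kept its GsMTx4 call only without Control 1 or DSS 1, with adjusted p up to 0.104 otherwise, and its DSS call in 4 of 9 such fits, with adjusted p up to 0.118. Tlr3, Tlr7, Tlr9 and Tlr12 passed in no comparison, with differences of GsMTx4 from DSS between -0.52 (Tlr9) and 0.19 (Tlr3) and of DSS from Control between -0.16 (Tlr3) and 0.42 (Tlr9).

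Of the proteins that hand LPS to TLR4, Cd14 and Lbp rose in DSS and stayed, on average, above Control with GsMTx4. Cd14, the LPS co-receptor of monocytes and macrophages, had 65.3, 45.1 and 45.8 FPKM in GsMTx4, 59.3, 57.0 and 58.3 FPKM in DSS and 40.4, 26.4 and 31.9 FPKM in Control. All GsMTx4 and DSS libraries were above all Control libraries, and GsMTx4 overlapped with DSS. Cd14 rose in DSS by 0.82 ± 0.19 (adjusted p = 0.0208; 0.0864 without Control 2 and 0.0711 without Control 3). GsMTx4 differed from DSS by -0.18 ± 0.19 (adjusted p = 0.567).

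Lbp, the LPS-binding protein, which is secreted by liver and also made by intestinal epithelium, had 25.8, 9.33 and 1.40 FPKM in GsMTx4, 22.2, 14.6 and 20.7 FPKM in DSS and 0.670, 0.991 and 1.42 FPKM in Control. The DSS libraries lay far above the Control libraries, while the GsMTx4 libraries ran from a value within the Control range to one above all DSS libraries. Lbp rose in DSS by 3.31 ± 0.69, an 18.7-fold ratio of mean FPKM, with adjusted p = 0.014 and 0.05 without Control 2. GsMTx4 differed from DSS by -1.19 ± 0.69 (95% interval -2.75 to 0.38, adjusted p = 0.285). That value changed with the library left out: without GsMTx4 1 it was -2.0 and passed (adjusted p = 0.0437), and without GsMTx4 3 Lbp was called higher than Control (log2 fold change 3.05, adjusted p = 0.015). Hepatocyte transcripts also differed between groups. The summed FPKM of 7 markers, among them Alb and Apoa1, was 40.6 to 57.8 in GsMTx4, 3.0 to 7.02 in DSS and 20.7 to 26.8 in Control. Ttr made up most of the Control sum, and without it the other 6 markers summed to 30.9 to 35.5 FPKM in GsMTx4, 0.819 to 1.83 FPKM in DSS and 1.62 to 2.28 FPKM in Control. All 7 passed as higher in GsMTx4 than in DSS (median log2 fold change 1.98), and between DSS and Control the median was -0.01, with Ttr and Alb passing as lower in DSS. Of the 7, Alb, Apoa1, Serpina1a, Fgb and Ahsg reached the minimum level for testing only with the GsMTx4 libraries counted, where they are high. Ahsg was listed at 0 in all 3 DSS libraries and 2 Control libraries, Serpina1a in 1 DSS library and all 3 Control libraries, Fgb in all 3 Control libraries and Apoa1 in 1 Control library. Their part in the Lbp values was not tested. Ly96, or MD-2, the TLR4 partner that binds LPS itself, had 3.38, 2.97 and 3.22 FPKM in GsMTx4, 5.0, 5.44 and 4.94 FPKM in DSS and 3.68, 2.65 and 5.31 FPKM in Control. Every GsMTx4 library was below every DSS library, but the difference of -0.55 ± 0.19 did not pass (adjusted p = 0.0858).

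Among the adaptors and IRAK kinases, the inhibitory kinase Irak3 and the proximal kinase Irak4 rose in DSS, and the adaptors did not pass. Irak3, also called IRAK-M, a brake on Toll-like receptor signalling found mainly in monocytes and macrophages, had 1.79, 1.54 and 1.18 FPKM in GsMTx4, 2.77, 2.20 and 3.58 FPKM in DSS and 1.33, 1.13 and 1.25 FPKM in Control. The DSS libraries were the 3 highest, and GsMTx4 and Control overlapped. Irak3 fell by 0.61 with GsMTx4 (SE 0.17, adjusted p = 0.0436), a call that remained only without DSS 2 or GsMTx4 1 and otherwise had adjusted p up to 0.112. It rose in DSS by 0.77 ± 0.17 (adjusted p = 0.0159; 0.0687 without Control 2 and 0.0568 without Control 3). Irak4, which starts the kinase cascade at MyD88, had 10.3, 7.91 and 6.20 FPKM in GsMTx4, 11.6, 11 and 11 FPKM in DSS and 7.87, 7.05 and 6.79 FPKM in Control. The DSS libraries were again the 3 highest, and the GsMTx4 libraries spanned the Control range. Irak4 rose in DSS by 0.57 ± 0.17 (adjusted p = 0.0444), kept only without GsMTx4 1 or GsMTx4 3 among the fits with 1 library left out (adjusted p up to 0.135). The GsMTx4 difference of -0.44 ± 0.17 did not pass (adjusted p = 0.11; 0.0309 without GsMTx4 1).

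Myd88, the adaptor of most Toll-like receptors and of the interleukin-1 receptors, averaged 21.4 ± 1.49 FPKM in GsMTx4, 26.2 ± 3.55 FPKM in DSS and 21.0 ± 1.86 FPKM in Control. The groups overlapped, with DSS different from Control by 0.30 ± 0.14 (adjusted p = 0.153). Tirap, the bridge from TLR2 and TLR4 to MyD88, Ticam1, the adaptor of TLR3, Ticam2, which links TLR4 to it, and the kinases Irak1 and Irak2 differed between DSS and Control by 0.02 to 0.25 and between GsMTx4 and DSS by -0.14 to 0.08. The exons of Irak3, Irak4 and Myd88 overlap those of Tmbim4, Twf1 and Acaa1a on the other strand over 5.22%, 7.87% and 11.3% of their length, and 14.6% of the 50-base stretches of Ticam2 are shared with other genes, mainly Tmed7. Whether strand was used in counting is not given, so reads from these stretches may belong to either gene.

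The NOD branch did not pass in any comparison. Nod1 averaged 5.55 ± 0.573 FPKM in GsMTx4, 5.90 ± 1.10 FPKM in DSS and 7.36 ± 0.655 FPKM in Control, with every GsMTx4 library below every Control library (5.50, 6.14 and 5.0 against 7.45, 6.67 and 7.97 FPKM) and DSS between, overlapping with both. DSS differed from Control by -0.29 ± 0.15 (95% interval -0.62 to 0.05). Nod2, the sensor of muramyl dipeptide, averaged 1.22 ± 0.448 FPKM in GsMTx4, 1.46 ± 0.495 FPKM in DSS and 1.02 ± 0.159 FPKM in Control, and the kinase Ripk2 5.10 ± 0.797, 5.01 ± 1.79 and 5.11 ± 0.466 FPKM. Their groups overlapped, and the intervals for DSS against Control, -0.17 to 0.71 for Nod2 and -0.52 to 0.40 for Ripk2, do not exclude changes of moderate size.

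Nor did the IkB kinase genes pass. Chuk (IKK alpha) was the most abundant of them, at 17.9 ± 3.47 FPKM in GsMTx4, 16.9 ± 0.678 FPKM in DSS and 17.9 ± 1.70 FPKM in Control. Ikbkb (IKK beta) and the scaffold Ikbkg (NEMO) averaged 3.36 and 2.99 FPKM in GsMTx4, 4.05 and 2.50 FPKM in DSS and 3.81 and 3.18 FPKM in Control. Ikbkg was lower in every DSS library (2.69, 2.31 and 2.49 FPKM) than in every Control library (3.47, 2.93 and 3.13 FPKM), a difference of -0.26 ± 0.13 that did not pass (adjusted p = 0.203). Map3k8, a kinase held by the NF-kB precursor p105 that passes Toll-like receptor signals to the ERK pathway, was at 1.45, 1.11 and 1.49 FPKM in GsMTx4, 2.05, 1.69 and 2.17 FPKM in DSS and 1.06, 1.01 and 1.47 FPKM in Control. Its DSS libraries were the 3 highest, but neither difference passed (0.45 ± 0.15 over Control, adjusted p = 0.0643; -0.34 ± 0.15 with GsMTx4, adjusted p = 0.159).

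Among the 5 NF-kB subunits, Rel was the only one to pass, and it had the largest fold changes of them. Rel, or c-Rel, is the subunit best known from lymphocytes and myeloid cells, and its gene lies on the minus strand at chr11:23736847-23770970 (GRCm38). It had 5.38, 4.06 and 1.82 FPKM in GsMTx4, 11.8, 9.20 and 9.23 FPKM in DSS and 2.17, 1.95 and 2.26 FPKM in Control. The DSS libraries were far above all others, and the GsMTx4 libraries ran from below the Control range to above it. Rel fell by 1.29 on the log2 scale with GsMTx4 (SE 0.26, adjusted p = 0.0171; 0.373 times the mean FPKM of DSS) and rose in DSS over Control by 1.82 ± 0.26 (adjusted p = 0.00337; 4.73 times). Both calls remained without any 1 of the 9 libraries, with adjusted p of 0.0098 to 0.0478 and of 0.000568 to 0.018; in the fit of GsMTx4 and DSS alone the fall had adjusted p = 0.0587. The other subunits had smaller differences, none passing. Rela (p65), the main transcription-activating subunit, had 14.0, 15.2 and 12.8 FPKM in GsMTx4, 18.7, 17.0 and 22.2 FPKM in DSS and 15.4, 13.0 and 15.3 FPKM in Control. Its DSS libraries were the 3 highest, with differences of -0.43 ± 0.14 with GsMTx4 (adjusted p = 0.0757) and 0.38 ± 0.14 over Control (adjusted p = 0.0897) that did not pass. Both passed after median-of-ratios scaling (adjusted p = 0.0266 and 0.015) and after quantile normalization (0.0396 and 0.0292). Relb, a subunit of the non-canonical pathway, was also higher in each DSS library (13.8 to 14.2 FPKM) than in the GsMTx4 libraries (10.5 to 13.6 FPKM) and the Control libraries (10.1 to 13.1 FPKM), by 0.24 ± 0.14 over Control (adjusted p = 0.249). Nfkb1 and Nfkb2, which encode the precursors p105 and p100, overlapped between groups, with 0.13 ± 0.22 and 0.50 ± 0.25 over Control and -0.24 ± 0.22 and -0.55 ± 0.25 with GsMTx4.

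The RefSeq windows of 300 bases at the transcription start (250 before it and 50 from it on; GRCm38.p6) were searched on both strands for the NF-kB consensus motif of 10 bases, with overlapping matches counted as 1 site. Of the 40 members 28 had a window and 8 of these (28.6%) held the motif: Rel, Nfkb2, Nfkbia, Nfkbie, Bcl3, Irak1, Tlr2 and Tlr3. Of all 27025 genes with a window, 9.55% did. Of the NF-kB and IkB genes with a match, the windows of 4 are shown and those of Nfkb2 are not. The 4 are shown because these families hold Rel, whose DSS call remained whichever library was left out. The window of Nfkbib is shown because the gene fell with GsMTx4 and the window holds no match. Capitals mark the match, which in these windows begins 92 bases before the start of transcription in Rel, 106 before it in Nfkbie, 29 before it in Nfkbia and 2 bases after the first transcribed base in Bcl3. A match is a description of letters and not evidence of a bound site. The Nfkbib window lies within the gene as annotated, which begins at 28767512 on the minus strand. The bases at its presumed start were found in no annotated transcript of Nfkbib. The lack of a match there may thus not hold for the promoter in use.
Rel (chr11:23770920-23771219, minus strand): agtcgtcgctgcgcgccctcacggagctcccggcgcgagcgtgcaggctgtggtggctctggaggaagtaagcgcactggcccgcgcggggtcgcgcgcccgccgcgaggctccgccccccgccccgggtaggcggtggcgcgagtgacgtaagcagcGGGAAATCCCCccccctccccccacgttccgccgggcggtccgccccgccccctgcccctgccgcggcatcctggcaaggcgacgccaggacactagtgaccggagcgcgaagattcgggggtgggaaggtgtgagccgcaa
Nfkbie (chr17:45555450-45555749, plus strand): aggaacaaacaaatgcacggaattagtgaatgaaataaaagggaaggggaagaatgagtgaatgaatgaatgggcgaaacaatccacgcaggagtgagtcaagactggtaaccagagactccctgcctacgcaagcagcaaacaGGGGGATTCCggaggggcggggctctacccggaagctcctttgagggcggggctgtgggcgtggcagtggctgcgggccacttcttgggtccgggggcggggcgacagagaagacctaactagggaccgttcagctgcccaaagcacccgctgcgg
Nfkbia (chr12:55492598-55492897, minus strand): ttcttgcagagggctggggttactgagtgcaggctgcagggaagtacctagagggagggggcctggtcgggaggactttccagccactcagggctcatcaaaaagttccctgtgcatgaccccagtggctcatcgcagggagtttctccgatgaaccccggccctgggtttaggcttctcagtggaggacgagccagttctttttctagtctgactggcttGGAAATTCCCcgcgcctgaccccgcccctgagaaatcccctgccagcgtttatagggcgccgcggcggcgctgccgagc
Bcl3 (chr7:19822706-19823005, minus strand): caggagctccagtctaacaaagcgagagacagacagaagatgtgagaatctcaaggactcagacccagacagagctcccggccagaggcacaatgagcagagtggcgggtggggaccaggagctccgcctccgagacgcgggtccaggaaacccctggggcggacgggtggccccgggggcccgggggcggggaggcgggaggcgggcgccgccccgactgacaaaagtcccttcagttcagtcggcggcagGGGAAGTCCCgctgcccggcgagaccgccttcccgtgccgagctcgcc
Nfkbib (chr7:28766595-28766894, minus strand): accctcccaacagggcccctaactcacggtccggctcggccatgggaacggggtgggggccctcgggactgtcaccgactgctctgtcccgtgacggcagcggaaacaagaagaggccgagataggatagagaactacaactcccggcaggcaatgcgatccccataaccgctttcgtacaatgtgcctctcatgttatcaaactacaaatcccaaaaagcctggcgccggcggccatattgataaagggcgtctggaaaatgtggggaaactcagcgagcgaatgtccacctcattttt

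For all 5 IkB genes, each DSS library exceeded each Control library, where 13.5% of all genes had this separation. Nfkbie alone among them passed. Nfkbie (IkB epsilon), one of the proteins that hold NF-kB dimers in the cytoplasm, had 3.36, 3.35 and 3.24 FPKM in GsMTx4, 5.12, 3.75 and 5.29 FPKM in DSS and 3.62, 2.10 and 2.14 FPKM in Control. DSS was above both other groups, with DSS 2 close to Control 1. Nfkbie rose by 0.67 ± 0.18 over Control (adjusted p = 0.0368), but not without Control 2, Control 3, DSS 1, DSS 3 or GsMTx4 2 (0.134, 0.125, 0.0912, 0.0947 and 0.0511). Nfkbia (IkB alpha), which resets the response after a stimulus, had 70.8, 46.7 and 54.8 FPKM in GsMTx4, 87.4, 65.8 and 65.8 FPKM in DSS and 52.3, 39.4 and 55.6 FPKM in Control, a difference of 0.57 ± 0.21 for DSS (adjusted p = 0.0853). The nuclear IkB proteins, which act as cofactors of NF-kB on its target genes, differed by 0.86 ± 0.29 (Nfkbiz, adjusted p = 0.0718) and 0.84 ± 0.32 (Bcl3, adjusted p = 0.0941). They passed without GsMTx4 3 (0.0206 and 0.041), a library outside the comparison that enters the shared estimate of spread.

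Nfkbib (IkB beta), another cytoplasmic inhibitor, was the IkB gene that passed with GsMTx4, and its level there was below that of Control too. It had 9.65, 10.2 and 10.5 FPKM in GsMTx4, 14.6, 16.4 and 16.4 FPKM in DSS and 13.0, 12.3 and 13.0 FPKM in Control. No library of one group overlapped with another group. Nfkbib fell by 0.60 with GsMTx4 (SE 0.11, adjusted p = 0.0115; 0.0181 to 0.043 without any 1 library, 0.0636 in the fit of GsMTx4 and DSS alone). Its differences of DSS from Control, 0.29 ± 0.11, and of GsMTx4 from Control, -0.31 ± 0.11, did not pass (adjusted p = 0.0979 and 0.39). A part of its exons, 14.5% of their length, overlaps Ccer2 on the other strand. With GsMTx4, the other 4 IkB genes differed from DSS by -0.55 to -0.35, none passing.

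Birc3, which encodes the ubiquitin ligase cIAP2 and is a common NF-kB target, had 18.6, 13.4 and 14.4 FPKM in GsMTx4, 15.7, 17.3 and 18.4 FPKM in DSS and 12.8, 9.59 and 10.7 FPKM in Control. Both injected groups lay above Control in every library and overlapped with each other. Birc3 rose in DSS by 0.60 ± 0.16 (adjusted p = 0.0335), a call lost without Control 2, Control 3, DSS 2 or DSS 3 (0.13, 0.103, 0.0757 and 0.0848). GsMTx4 differed from DSS by -0.15 ± 0.16 (adjusted p = 0.562).

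**Figure D3:**
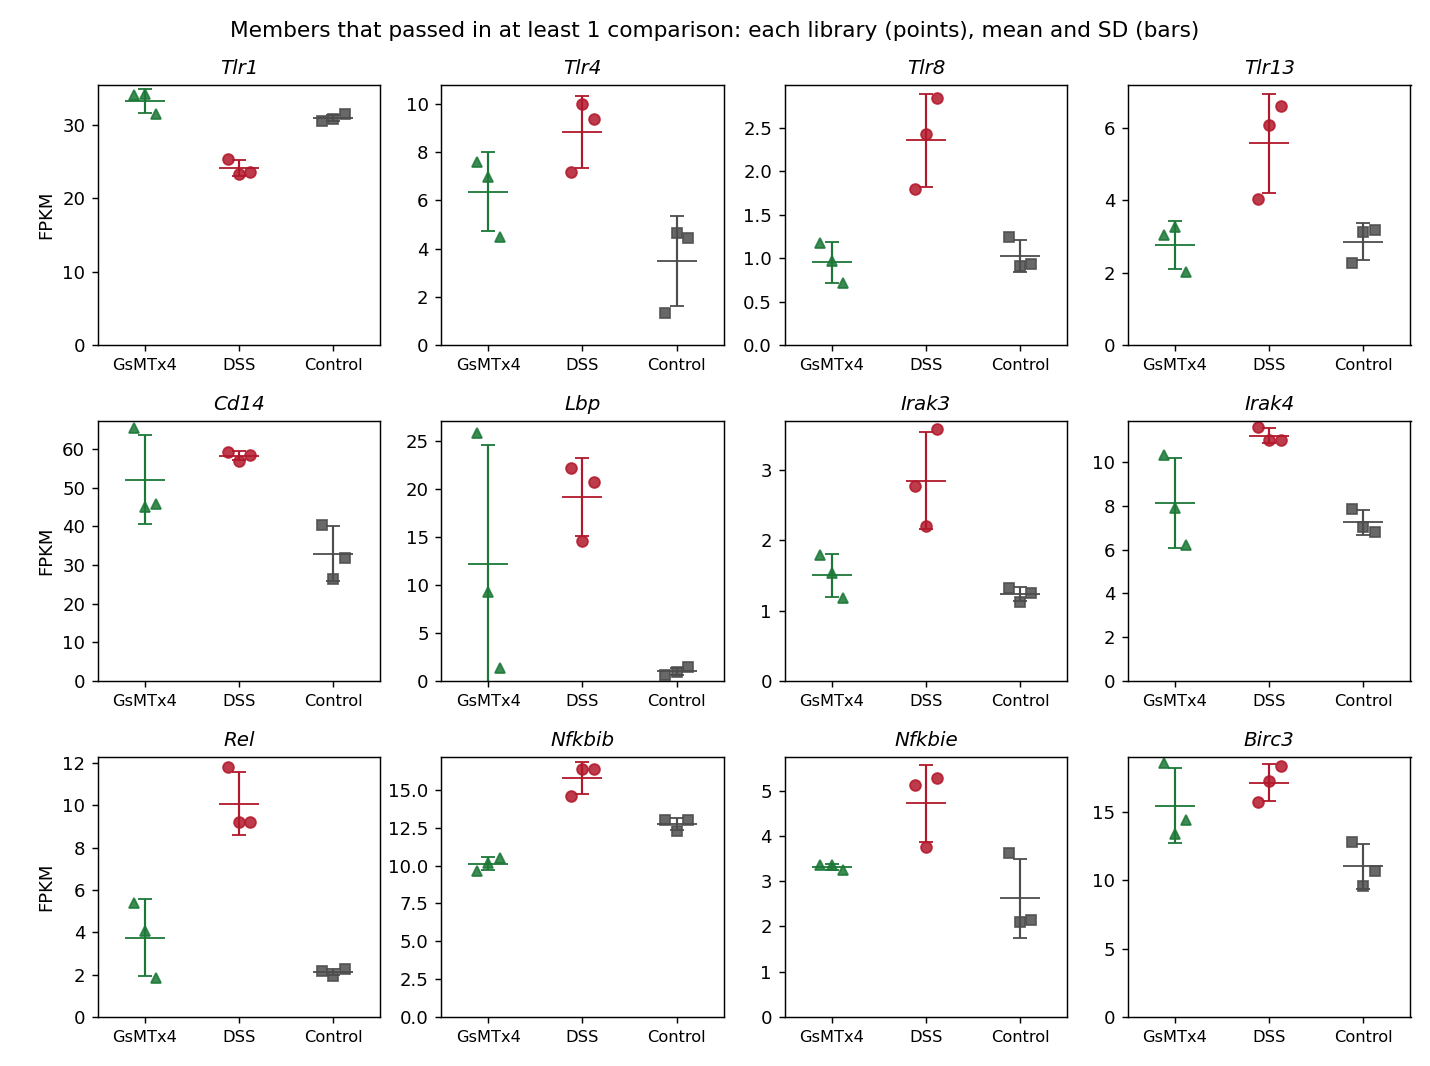
FPKM in each library (points) with the group mean and SD (bars; the lower bar of Lbp in GsMTx4 is cut at 0) of the 12 members that passed in at least 1 comparison, for GsMTx4, DSS and Control. Tlr1 is lowest in DSS; Tlr8, Tlr13, Irak3, Irak4, Rel, Nfkbib and Nfkbie are highest there in every library; Lbp in GsMTx4 runs from 1.40 to 25.8 FPKM.

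Between GsMTx4 and Control no member passed, and few genes did: 0.188% of all tested genes were called higher and 0.0487% lower, or 0.237% in all. At an unadjusted p under 0.05 in limma, 4 members were higher (Tlr4, Cd14, Lbp and Birc3) and 2 lower (Nod1 and Nfkbib), or 15.4% of the members, where 10.1% of all tested genes had such a p (2.79% higher and 7.35% lower). The log2 differences were 0.80 ± 0.33 for Tlr4, 0.65 ± 0.19 for Cd14, 2.12 ± 0.69 for Lbp and 0.45 ± 0.16 for Birc3, with adjusted p from 0.315 to 0.474. For Rel the difference was 0.53 ± 0.26 (95% interval -0.07 to 1.12). All GsMTx4 libraries were above all Control libraries for Cd14 and Birc3, a separation found in 5.0% of all genes, and below them for Tlr12, Nod1 and Nfkbib, as in 14.6% of all genes. The median of the members was 0.10, beside -0.08 over all genes, and was -0.01 without GsMTx4 1.

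The 3 GsMTx4 libraries differed among themselves in these genes. GsMTx4 1 had the highest value of its group in 28 of the 39 members (71.8%), where it was highest in 28.0% of all tested genes, and GsMTx4 3 the lowest in 27 (69.2%), where it was lowest in 45.6% of all genes. Lbp and Rel showed the spread most clearly, at 25.8 and 5.38 FPKM in GsMTx4 1 and at 1.40 and 1.82 FPKM in GsMTx4 3. In DSS, DSS 3 was highest in 22 members (56.4%) and DSS 2 lowest in 25 (64.1%), beside 43.9% and 50.3% of all genes. The Control libraries differed as well: Control 3 was highest in 19 members (48.7%) and Control 2 lowest in 25 (64.1%), beside 36.5% and 27.3% of all genes.

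Other genes of the pathway were read from lists of signal transducers, receptor chaperones and accessory proteins, negative regulators and further NOD and non-canonical NF-kB genes, 46 of 49 of them tested. With GsMTx4, 1 rose (2.17%) and 7 fell (15.2%) relative to DSS, beside 6.66% and 5.62% of all genes, with a median log2 fold change of -0.08, beside 0.07 over all genes. In DSS, 11 rose (23.9%) and 4 fell (8.70%) relative to Control, beside 6.41% and 10.7% of all genes, with a median of 0.03, beside -0.17. These counts were sensitive to single libraries. So were those over all genes: without 1 Control or DSS library the 921 rises in DSS became 382 to 791. The 1541 falls became 581 to 1189. Without Control 1, Control 2, Control 3, DSS 1, DSS 2 or DSS 3 the 11 rises became 4, 1, 3, 5, 7 and 7 and the 4 falls 2, 1, 1, 1, 1 and 2, and the 7 falls with GsMTx4 became 4 without Control 2 or Control 3, 3 without DSS 1 and 2 without GsMTx4 2. Only the calls of Irf5 and Nlrp6 in DSS remained in all of these fits. Irf5, a transcription factor activated below MyD88, averaged 6.24 ± 0.626 FPKM in GsMTx4, 10.6 ± 2.48 FPKM in DSS and 5.34 ± 0.525 FPKM in Control; it rose in DSS by 0.86 ± 0.16 (adjusted p = 0.00995) and fell by 0.67 with GsMTx4 (SE 0.16, adjusted p = 0.0329, up to 0.11 without GsMTx4 2). Nlrp6, a NOD-like receptor of the intestinal epithelium, went the other way, with 51.7 ± 9.76 FPKM in GsMTx4, 28.1 ± 7.95 FPKM in DSS and 77.8 ± 5.41 FPKM in Control. It fell by 1.48 in DSS (SE 0.23, adjusted p = 0.00409) and rose with GsMTx4 by 0.88 ± 0.23 (adjusted p = 0.0371, with 7 of the 9 libraries needed for the call).

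By list, the counts stand beside 6.41% of all genes that rose in DSS, 10.7% that fell there and 5.62% that fell with GsMTx4. The receptor chaperones and accessory proteins gave 4 rises in DSS (Slc15a3, Cd36, Ly86 and Unc93b1) and 4 falls with GsMTx4 (Cd36, Unc93b1, Tlr11 and Ly86) among 9 genes. Of these, Tlr11 reached the minimum level for testing only with the DSS libraries counted, where it is high. Unc93b1, which carries the endosomal receptors out of the endoplasmic reticulum, averaged 25.4 ± 1.29 FPKM in GsMTx4, 39.2 ± 3.06 FPKM in DSS and 29.0 ± 2.93 FPKM in Control, and fell by 0.61 with GsMTx4 (SE 0.13, adjusted p = 0.0181; 0.0527 without DSS 1 and 0.067 without GsMTx4 2). Cd36, a scavenger receptor that assists TLR2, fell by 1.05 with GsMTx4 (SE 0.20, adjusted p = 0.0127; 0.0514 without GsMTx4 2). The negative regulators gave 3 rises in DSS among 12 genes, led by Zc3h12a, the RNase regnase-1 that degrades cytokine mRNAs, at 23.0 ± 12.9 FPKM in GsMTx4, 40 ± 11.5 FPKM in DSS and 10.2 ± 1.89 FPKM in Control (1.85 ± 0.37, adjusted p = 0.0118; 0.0519 without Control 2), and followed by Tnip3 and Nlrx1. None of them passed with GsMTx4. The further NOD and non-canonical NF-kB genes gave 3 rises (Card9, Map3k14 and Traf1) and 2 falls (Nlrp6 and Rnf31) in DSS among 11 genes, and Card9 and Traf1 fell by 0.82 with GsMTx4 (SE 0.18) and 0.80 (SE 0.17, both adjusted p = 0.0195), with adjusted p of 0.0714 and 0.0707 without GsMTx4 2. Among 14 signal transducers Irf5 rose in DSS and Peli1 and Tab1 fell, by 0.43 (SE 0.12) and 0.38 (SE 0.11), which no fit without 1 of the Control or DSS libraries kept.

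Genes known as NF-kB targets, such as chemokines and acute-phase proteins, had a wider range of fold changes than the members. Of 21 tested, 10 rose in DSS over Control and none fell, with a median log2 fold change of 1.09, and 6 fell with GsMTx4 and none rose, with a median of -0.76 that was -0.35 without DSS 3. In all, 47.6% rose in DSS, where 6.41% of all genes did, and 28.6% fell with GsMTx4, where 5.62% did. Cxcl1, Cxcl2, Cxcl5 and Il12b reached the minimum level for testing only with the DSS libraries counted, where they are high, so these shares are not independent of that filter. With no minimum level, 7 of 26 targets rose in DSS and 6 fell with GsMTx4 (medians 0.89 and -0.65). Over all 33133 genes of that fit, 633 rose in DSS and 483 fell with GsMTx4. At an unadjusted p under 0.05 limma gave 1 lower in DSS and 1 higher with GsMTx4, or 4.76% each time, beside 23.2% and 17.2% of all genes. Cxcl5, a neutrophil-attracting chemokine, had 10.2, 3.32 and 0.573 FPKM in GsMTx4, 47.3, 61.5 and 57.4 FPKM in DSS and 0.511, 0.261 and 0.0520 FPKM in Control. Each GsMTx4 library was above each Control library and below each DSS library. Cxcl5 fell by 3.73 with GsMTx4 (SE 0.56, adjusted p = 0.0058) and rose in DSS by 5.47 ± 0.56 (adjusted p = 0.000863). Vcam1, the adhesion molecule of activated endothelium, averaged 4.36 ± 0.856 FPKM in GsMTx4, 15.0 ± 1.06 FPKM in DSS and 5.05 ± 1.44 FPKM in Control, and fell by 1.59 with GsMTx4 (SE 0.20, adjusted p = 0.00291). Cxcl1, Saa3 and Lcn2 also rose and fell in this way, while Ier3 lost its GsMTx4 call without GsMTx4 2 (adjusted p = 0.0625). Nos2, the inducible nitric oxide synthase, rose in DSS by 4.57 ± 0.63 (adjusted p = 0.00274), and in GsMTx4 its libraries ran from 8.83 to 80.6 FPKM. Between GsMTx4 and Control none of the 46 pathway genes and none of the 21 targets passed; at an unadjusted p under 0.05 the counts were 6 (13.0%) and 6 (28.6%), beside 10.1% of all genes.

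**Figure D4:**
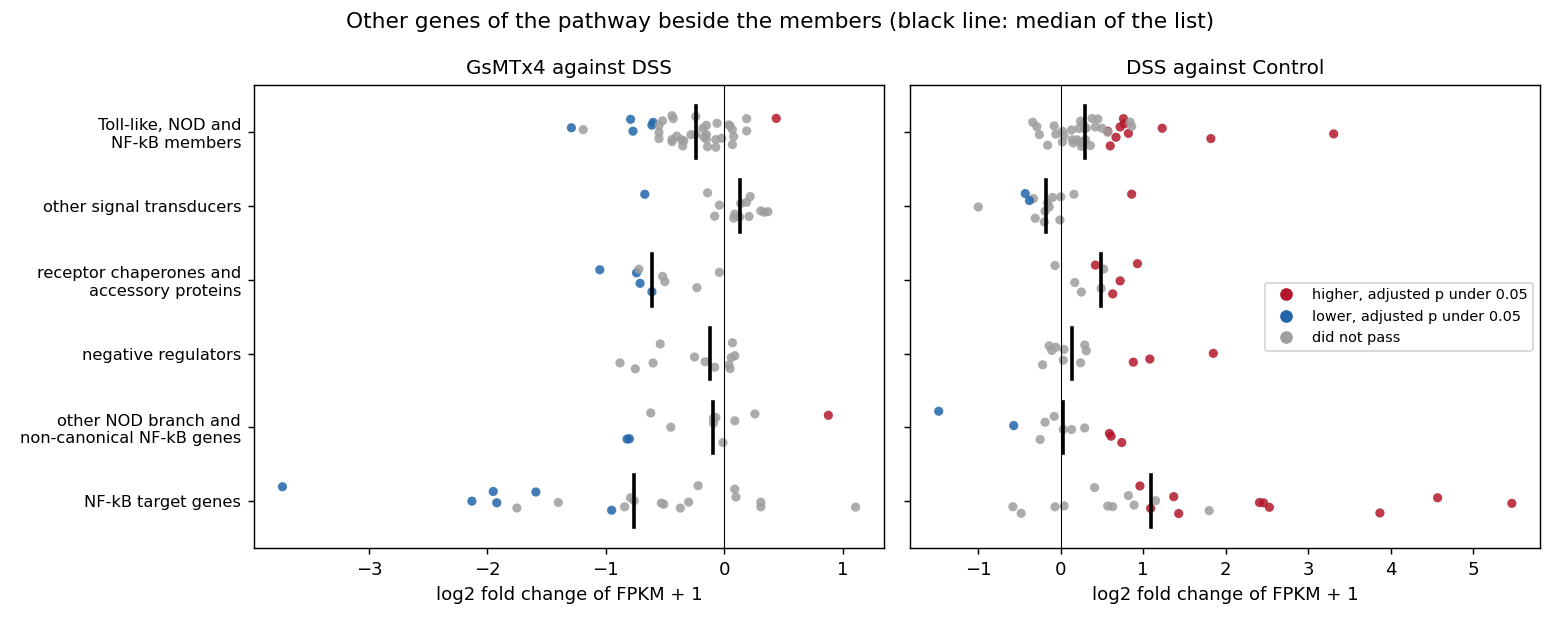
Log2 fold changes of FPKM + 1 of the members and of 5 lists of other genes of the pathway (1 point a gene, black bar the median of the list), for GsMTx4 against DSS on the left and DSS against Control on the right. NF-kB targets reach -3.73 on the left and 5.47 on the right, beyond all members.

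Markers of several cell types differed between the groups. Beside the counts given here, 6.41% of all tested genes rose in DSS and 5.62% fell with GsMTx4. The summed FPKM of 10 monocyte and macrophage markers was 354 to 424 in GsMTx4, 616 to 738 in DSS and 229 to 360.3 in Control. Lyz2 made up most of it, and the other 9 summed to 72.2 to 87.9 FPKM in GsMTx4, 121 to 151 FPKM in DSS and 68.8 to 102 FPKM in Control. Both sums were highest in the DSS libraries, while Adgre1, the F4/80 antigen of macrophages, averaged 12.2 FPKM in GsMTx4, 11.9 FPKM in DSS and 8.77 FPKM in Control. Of the 10, 3 rose in DSS and 2 (Csf1r and Cd68) fell with GsMTx4, and none was at 0 in any library. The 6 neutrophil markers summed to 5.01 to 43.8 FPKM in GsMTx4, 59.1 to 302 FPKM in DSS and 1.73 to 2.55 FPKM in Control, with S100a9, Cxcr2 and Mmp8 each listed at 0 in 1 Control library. Of 4 tested, 3 rose in DSS and 2 fell with GsMTx4. S100a8 and Retnlg reached the minimum level for testing only with the DSS libraries counted, where they are high, so these counts are not independent of that filter. The same holds for Pax5 among the B cell markers and Vwf among the endothelial markers. The 5 B cell markers summed to 17.5 to 33.9 FPKM in GsMTx4, 38.6 to 162 FPKM in DSS and 9.93 to 33.8 FPKM in Control; 2 rose in DSS and none passed with GsMTx4. The 5 T cell markers summed to 17.5 to 21.5 FPKM in GsMTx4, 20.6 to 38.0 FPKM in DSS and 20.8 to 29.1 FPKM in Control, overlapping between all groups, and none passed in any comparison. Of 5 fibroblast markers, 3 fell with GsMTx4 (median -1.01) and none passed in DSS against Control, with sums of 89.1 to 117 FPKM in GsMTx4, 117 to 242 FPKM in DSS and 111 to 125 FPKM in Control. Of 5 endothelial markers, 2 rose in DSS (median 0.72) and none passed with GsMTx4, with sums of 9.03 to 15.6 FPKM in GsMTx4, 13.5 to 27.0 FPKM in DSS and 8.38 to 12.2 FPKM in Control. Of 8 markers of colon epithelium, 1 rose in DSS and 2 fell with GsMTx4, with sums of 3745 to 4278 FPKM in GsMTx4, 4322 to 5568 FPKM in DSS and 3750 to 4663 FPKM in Control. Of 5 smooth muscle markers none passed, with medians of -0.57 in DSS and 0.51 with GsMTx4. They summed to 492 to 637 FPKM in GsMTx4, 189.5 to 725 FPKM in DSS and 381 to 614 FPKM in Control. Of 4 red blood cell markers tested, 1 fell with GsMTx4 (median -1.25) and none passed in DSS (median 0.68). Their part in the results for the members was not tested.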

How the data were processed

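Total RNA was extracted with Trizol and sequenced on an Illumina instrument, per the labels' protocols. The authors deposited FPKM values for 35315 genes in 9 libraries; cutadapt, FastQC and the build GRCm38 are named in the submitters' processing notes, and no aligner or counting program is named in the sources used here. Gene symbols came from an annotation of GRCm38, which held 35196 of the genes. Values were taken to log2(FPKM + 1), which understates changes of low genes. The 14360 genes that reached an FPKM of 1 in 3 or more libraries, of any group, were fitted with limma 3.58.1 in R 4.3.3 (1 mean per group over all 9 libraries, empirical Bayes with trend, 6 residual degrees of freedom, two-sided). P-values were adjusted over all tested genes by the Benjamini-Hochberg method. The fit was tested on simulated data. Plots were made in Python 3.11.15 (matplotlib 3.10.9).

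The members and lists were chosen with earlier results of these data known. All members are described; from each other list, the 3 passing genes with the smallest p in a comparison are named, and Map3k14, Lcn2, Ier3 and Nos2 were added after their values were seen. Alternative settings were a pseudocount of 0.1 or 0.01, no minimum level, a mean FPKM of at least 5, rescaling to TPM, median-of-ratios scaling, quantile normalization, the compared groups only, sample weights, no trend, a replicate block and each library left out in turn.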

Additional observations from a re-analysis of the deposited data

How the results depend on the processing

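For DSS against Control, the 10 members that rose became 4 with no filter or with TPM rescaling, 6 at a mean FPKM of at least 5, 16 with median-of-ratios scaling, 17 with sample weights and 2 to 12 with 1 library left out. Over all genes the 921 rises became 637 with TPM rescaling, 1406 with median-of-ratios scaling and 1524 with sample weights. They were 633 of 33133 with no filter, 579 of 7631 at a mean FPKM of at least 5 and 382 to 1094 with 1 library left out. The 0 members that fell became 1 (Tlr1) with no filter, at a mean FPKM of at least 5, in the compared groups only and with sample weights, and were 0 to 1 with 1 library left out. For GsMTx4 against DSS, the 1 that rose became 0 with TPM rescaling, with median-of-ratios scaling and in the compared groups only, and was 0 to 1 with 1 library left out. The 5 that fell became 2 with no filter or at a mean FPKM of at least 5, 3 with TPM rescaling, 0 in the compared groups only and 2 to 6 with 1 library left out. Over all genes the 956 rises and 807 falls became 699 and 576 with TPM rescaling and 327 and 260 in the compared groups only. With no filter they were 590 and 483 of 33133, and at a mean FPKM of at least 5 they were 686 and 495 of 7631. For GsMTx4 against Control, the 0 members that rose became 1 (Lbp) with sample weights and were 0 to 1 with 1 library left out. Over all genes the 27 rises became 98 with sample weights. With the replicate block, 5 members rose in DSS (Tlr4, Cd14, Lbp, Irak3 and Rel), 0 rose with GsMTx4 and 2 fell (Rel and Nfkbib). Over all genes 713 rose in DSS in that fit, and 553 rose and 525 fell with GsMTx4. The numbers are not shown to pair the libraries: deviations of same-numbered libraries correlated at -0.233 to 0.10. No member that passed in a comparison changed direction there under any alternative. Some members with small differences did: without GsMTx4 1 the median of the members for GsMTx4 against Control went from 0.10 to -0.01. Over all genes, the median for DSS against Control, -0.17, became -0.27 with TPM rescaling, -0.01 with median-of-ratios scaling and -0.06 with quantile normalization. The cause of these changes was not tested. Low receptors such as Tlr5, Tlr6 and Tlr8 lie near the minimum of 1 FPKM, and with the depth unknown their counting error cannot be given.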
